A study of Mus musculus with 6 samples.

Results

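The E2F transcription factors and the RB pocket proteins were examined as 10 genes, chosen by name: the activating factors E2f1, E2f2 and E2f3, the repressive factors E2f4, E2f6, E2f7 and E2f8, and the pocket protein genes Rb1, Rbl1 and Rbl2. They are 10 of the 54532 genes in the deposited expression table, and each name matched 1 row. RNA was sequenced from bone marrow (BM) cells of C57BL/6 mice at day 100 after transplantation, with 3 libraries labelled Phf6 WT (WT 1 to WT 3) and 3 labelled Phf6 KO (KO 1 to KO 3). By the methods of the study, the donor cells were lineage-negative BM cells of Phf6 fl/y male mice without Cre (WT) or with Vav1-Cre (KO), and the recipients were lethally irradiated male mice. Donors and recipients were 8 weeks old. Both groups carried the same retroviral JAK3 M511I-GFP construct, which drives a T-cell acute lymphoblastic leukemia (T-ALL), so the WT libraries are not from healthy marrow. Vav1-Cre acts in all blood lineages and the floxed donors of the WT group carried no Cre. The labels call the material BM and do not say whether GFP+ cells were purified first. The genotype labels of samples after the first of each group give a rising digit after Phf (Phf7, Phf8), and all were read as Phf6, the gene that the design text names.

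The E2F and RB families control the step from G1 into S phase. RB family proteins bind E2F factors and hold their target genes silent. When cyclin-dependent kinases phosphorylate the pocket proteins, the activating factors E2f1, E2f2 and E2f3 are released and switch on genes of DNA replication. E2f4 works mainly as a repressor together with p107 (Rbl1) and p130 (Rbl2) in the DREAM complex of resting cells. E2f6 represses through a Polycomb complex and binds no pocket protein, and E2f7 and E2f8 are atypical factors that bind DNA without a DP partner and curb the activators late in S phase. In developing T cells and in T-ALL this pathway sets how readily cells divide. Several family genes are themselves E2F targets.

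The letters that such feedback would use can be searched in the promoters. The gene E2f3 has 2 starts, and the products from them are known as E2f3a and E2f3b. The stretches below hold the 150 bases before each start of E2f3 and before the start of Rbl1, read 5′ to 3′ on the gene's strand, because these are the family genes with the largest positive log2 fold changes. They are from RefSeq on GRCm38.p6, and capitals mark a match to an E2F word, on either strand.
E2f3, first start, chr13:29986064-29986213, minus strand: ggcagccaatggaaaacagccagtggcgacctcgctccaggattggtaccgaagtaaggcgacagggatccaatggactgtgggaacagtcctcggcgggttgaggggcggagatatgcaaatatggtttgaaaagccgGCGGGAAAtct
E2f3, second start, chr13:29984392-29984541, minus strand: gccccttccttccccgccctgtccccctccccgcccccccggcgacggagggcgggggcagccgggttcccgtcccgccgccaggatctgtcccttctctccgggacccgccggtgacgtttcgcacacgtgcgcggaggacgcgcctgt
Rbl1, chr2:157204535-157204684, minus strand: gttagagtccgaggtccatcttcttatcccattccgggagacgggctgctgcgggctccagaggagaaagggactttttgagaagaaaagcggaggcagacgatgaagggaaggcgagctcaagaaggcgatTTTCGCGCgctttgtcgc

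The first E2f3 stretch lies upstream of the gene, the second lies in the intron after the first exon of the longer transcript, and the Rbl1 stretch lies upstream of the gene. The E2F words searched were TTTCCCGC, TTTGGCGC, TTTCGCGC and TTTGCCGC on both strands, in windows from 250 bases before to 50 bases after each start. Promoter windows were at hand for 8 of the 10 genes, 10 windows in all, and not for E2f4 and Rb1. An E2F word was found in 4 of the 10 windows, compared with 2.26% of 32851 windows of all genes. It lay 11 bases before the first start of E2f3, 18 bases before the start of Rbl1, 198 bases before that of E2f7 and 40 bases after the first start of E2f2. No window of E2f1, E2f6, E2f8 or Rbl2 held one of these words. For E2f1 the start in the table was 466 bases downstream of the 5′ end of the gene in the deposited coordinates, so the window did not reach its upstream promoter. The cell cycle gene homology region (CHR) word TTTGAA, a site of MuvB complexes, was present in 4 of the 8 genes (E2f2, E2f3, E2f8 and Rbl2, compared with 20.2% of 27025 genes), and the NF-Y word CCAAT in 4 of them (E2f2, E2f3, E2f7 and E2f8, compared with 41.1% of genes). The first start of E2f3 carried all 3 kinds of word and its second start none. Of the E2f2 starts, the first lay 120 bases upstream of the gene's 5′ end in the deposited coordinates. The second, whose window alone held the CHR word of E2f2, lay 8388 bases downstream of that end, inside the gene. The words found do not overlap each other, and a match is a description of letters, not of a bound site.

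**Figure D1:**
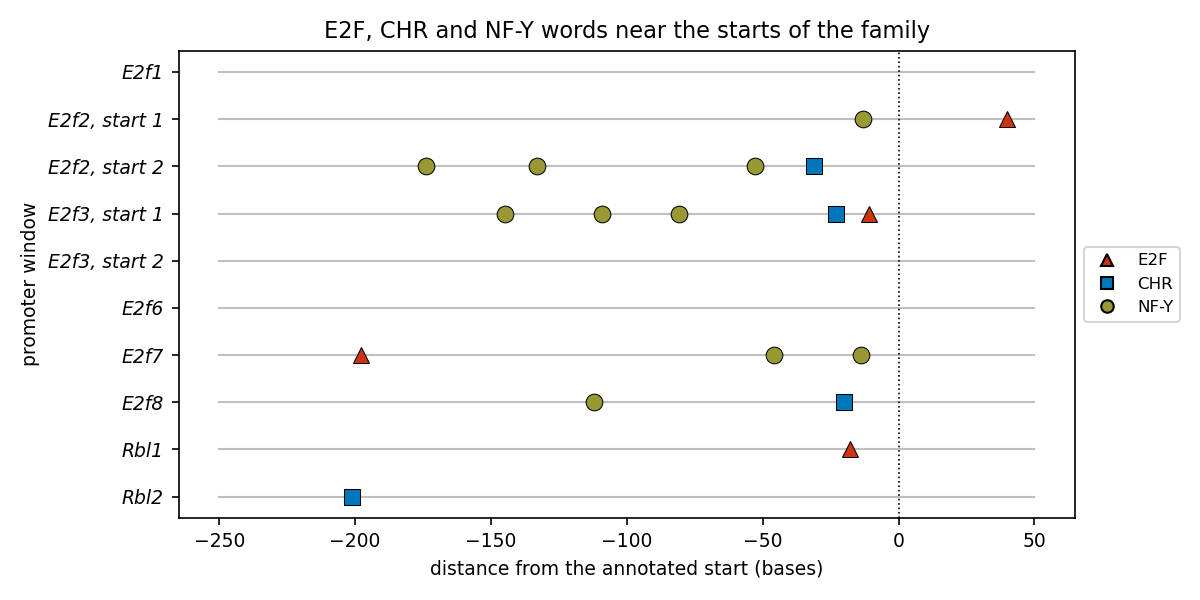
Positions of E2F, CHR and NF-Y words (markers) in the 10 promoter windows of 8 family genes. The x axis is the distance in bases of the first base of the word from the annotated start, and each horizontal line is 1 window. The E2F words of E2f3 and Rbl1 lie within 20 bases before the start, and the second start of E2f3 has no marker.

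The libraries have to be described before the values. Recovered reads came to between 13015823 and 18235095 per library. WT 2 stood apart: 17.1% of its reads fell in genes shorter than 1000 bases (3.11% to 5.01% in the others) and 6.74% in genes of at least 8000 bases (22.9% to 26.5%), and its correlation with WT 1 and WT 3 across genes was 0.779 and 0.746, compared with 0.948 between WT 1 and WT 3. In WT 2, 21.6% of the reads fell in ribosomal protein genes (5.15% to 6.94% in the others). Its FPKM over all genes summed to 897352, compared with 244936 to 329893 in the others, so its values are not on the same total scale. All 10 family genes are at least 2452 bases long. Markers of other blood cells moved with the groups. Over the 13393 genes that could be tested, 49.1% did not overlap between the groups in either direction. The summed FPKM of 10 neutrophil markers was 6817 to 96015 in the WT and 94.9 to 289 in the KO libraries, and that of 8 monocyte and macrophage markers was 591 to 4991 and 11.3 to 27.4. All 10 neutrophil and 7 of the 8 monocyte genes were lower in every KO than in every WT library. For 9 erythroid markers it was 68050 in WT 2, 137 and 526 in WT 1 and WT 3, and 16.9 to 126 in the KO libraries, with 7 genes lower and 1 higher without overlap. For 8 B cell markers it was 1074 in WT 2, 11.3 and 17.2 in WT 1 and WT 3, and 1.10 to 1.39 in the KO libraries. T cell markers were present in all libraries, with a summed FPKM of 1022 to 2300 in the WT and 1013 to 1313 in the KO libraries. Of the 10 genes 3 were lower and 2 higher without overlap, close to the 49.1% of all genes tested. The coreceptor gene Cd4 had a mean FPKM of 2.16 in the WT and 81.4 in the KO libraries (log2 fold change 4.67; adjusted p = 0.000415 by limma) and Cd5 had 30.5 and 9.18 (-1.76; adjusted p = 0.0200 by limma), which did not pass without WT 3, KO 2 or KO 3. Cd8b1, at 452 and 128, missed the threshold (-1.64; adjusted p = 0.0512 by limma). The sum of 7 natural killer (NK) cell genes was 145 to 256 in the WT and 570 to 619 in the KO libraries. Of these, 6 were lower and Gzma was higher in the KO libraries without overlap. Of 6 megakaryocyte genes 4 were lower without overlap, among them Ppbp, which was at 0 in all KO libraries, and Gp1bb was at 0 in all 6 libraries. Of 6 stem and progenitor genes 2 were lower and 1 higher without overlap. Phf6 itself measured 7.47, 3.67 and 8.02 FPKM in WT 1 to WT 3, against 6.73, 5.50 and 5.11 FPKM in KO 1 to KO 3 (log2 fold change -0.073; adjusted p = 0.893 by limma). The deletion removes part of the gene, so the RNA per gene does not check the labels.

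The question was whether the family, and the balance of activators and repressors within it, differed with the Phf6 label. E2f3 was the single family gene that passed the test, with a mean FPKM 3.72-fold higher in the KO libraries. Rbl1, E2f6, Rb1 and E2f4 were higher in every KO than in every WT library but did not pass. E2f1, E2f2, E2f8 and Rbl2 overlapped between the groups, and E2f7 was too low to be tested. In all, 1 of the 9 genes tested passed (11.1%), compared with 26.4% of the 13393 genes tested overall. Passing genes that were higher made up 13.1% of all genes and lower ones 13.3%, and 0 of the 9 family genes were lower past the threshold. At an unadjusted p under 0.05 there were 3 of the 9 family genes, E2f3, E2f6 and Rbl1, all higher, beside 5018 of all 13393 genes. Groups did not overlap in 5 of the 9 (55.6%), compared with 49.1% of all genes. The share past the threshold thus lies below the background, and the share without overlap close to it. The log2 fold changes are on the log2(FPKM + 1) scale, which understates the change of low genes, and tests are limma with Benjamini-Hochberg adjustment over all 13393 genes. In bulk RNA, fewer cells of a type and less RNA per cell cannot be told apart.

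**Figure D2:**
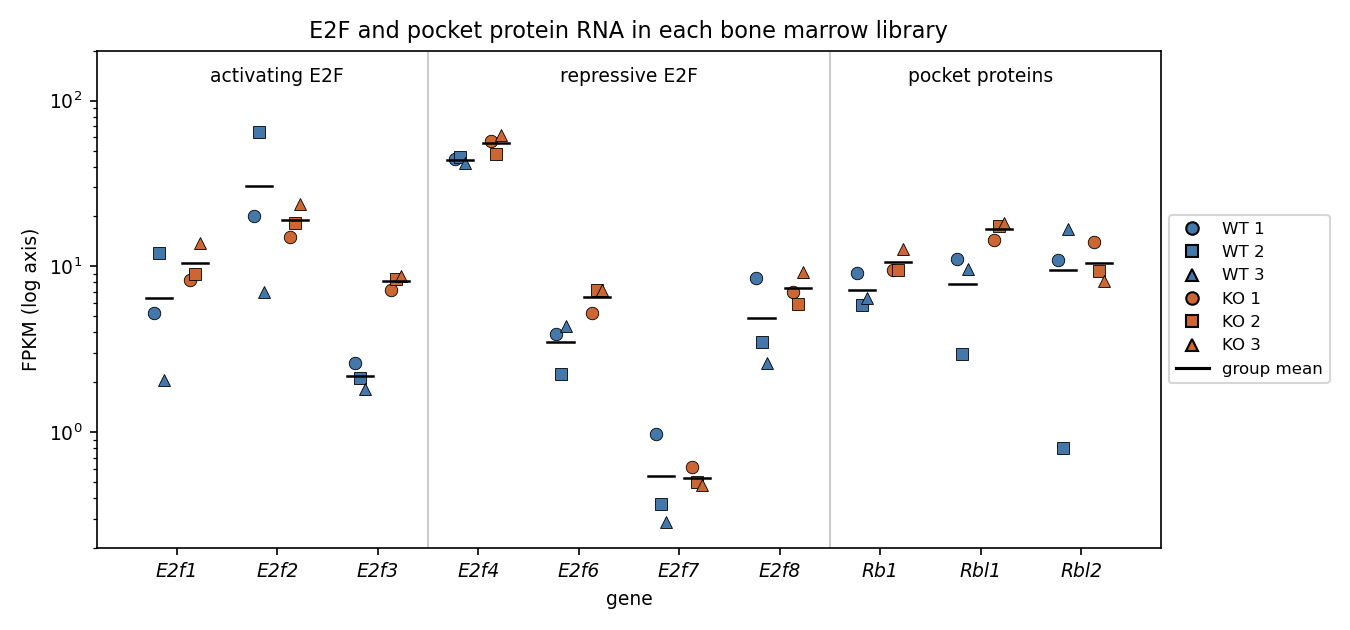
FPKM (log axis) of the 10 genes in each library. Blue symbols are WT and orange symbols KO libraries, the symbol shape gives the library number and the bar the group mean. E2f3 lies between 1.81 and 2.61 in the WT and between 7.23 and 8.68 in the KO libraries, while WT 2 is the highest WT library for E2f2 and the lowest for Rbl1 and Rbl2.

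The activating factors moved in different ways. E2f3 (ENSMUSG00000016477, chromosome 13, 29906575 to 29986063, minus strand, GRCm38) measured 2.61, 2.12 and 1.81 FPKM in WT 1 to WT 3, against 7.23, 8.40 and 8.68 FPKM in KO 1 to KO 3. The groups did not overlap, and the spread within each was small beside the gap. The mean rose from 2.18 ± 0.407 to 8.10 ± 0.772 (SD, n = 3 each). The log2 fold change was 1.52 (SE 0.23; adjusted p = 0.00467 by limma). E2f3 passed in each of 18 alternative analyses, with log2 fold changes from 1.40 to 2.49 and adjusted p-values from 8.13e-05 to 0.0335. The values rest on 135 to 219 reads in the WT and 718 to 759 reads in the KO libraries. Both starts shown above are counted in 1 value, so E2f3a and E2f3b are not distinguished.

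E2f1, the activator most closely tied to apoptosis as well as to S phase (ENSMUSG00000027490, chromosome 2, 154559407 to 154569892, minus strand), measured 5.22, 12.0 and 2.07 FPKM in WT 1 to WT 3, against 8.32, 9.04 and 13.9 FPKM in KO 1 to KO 3. WT 2 lay above KO 1 and KO 2, and the other WT libraries lay below all 3 KO libraries. The means were 6.42 ± 5.06 and 10.4 ± 3.05 (SD, n = 3 each), and the log2 fold change of 0.83 (SE 0.54) missed the threshold (adjusted p = 0.313 by limma). Without WT 2 it was 1.36 and passed (adjusted p = 0.0222 by limma, with 0.0126 and 0.619 as the extremes of the alternatives). It also passed after rescaling to TPM and with array weights, and its direction was positive in all 18 alternatives.

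E2f2, an activator that is abundant in erythroid and lymphoid precursors (ENSMUSG00000018983, chromosome 4, 136172394 to 136196057, plus strand), measured 20.1, 64.3 and 6.99 FPKM in WT 1 to WT 3, against 15, 18.3 and 23.7 FPKM in KO 1 to KO 3. The WT values spanned the KO values on both sides, and WT 2 was the highest of all 6. The log2 fold change was -0.18 (SE 0.73, adjusted p = 0.884 by limma), and it was 0.60 without WT 2 (adjusted p = 0.276 by limma) and 0.67 after rescaling to TPM. Relative to the median over all genes, the TPM value was -0.19, compared with -0.26 with the FPKM as deposited and 0.56 without WT 2. Adjusted p-values for E2f2 ran from 0.268 to 0.990 over the alternatives by limma. No direction can therefore be given for E2f2. WT 2 is also the library with the erythroid marker sum of 68050 FPKM given above, and the part of these cells in its E2f2 level was not tested.

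Of the repressive factors, E2f4 was the most abundant family gene in 5 of the 6 libraries. E2f4 (ENSMUSG00000014859, chromosome 8, 105297663 to 105305370, plus strand) measured 44.6, 45.7 and 42.0 FPKM in WT 1 to WT 3, against 57.4, 47.4 and 61.9 FPKM in KO 1 to KO 3. All KO libraries were above all WT libraries, although KO 2 exceeded WT 2 by little. The log2 fold change of 0.32 (SE 0.23) missed the threshold (adjusted p = 0.373 by limma), and it passed in none of the 18 alternatives.

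E2f6, the Polycomb-linked repressor (ENSMUSG00000057469, chromosome 12, 16810963 to 16839742, plus strand), measured 3.88, 2.25 and 4.35 FPKM in WT 1 to WT 3, against 5.23, 7.19 and 7.22 FPKM in KO 1 to KO 3. The groups did not overlap, and WT 2 was the lowest. The mean was 3.49 ± 1.10 in the WT and 6.55 ± 1.14 in the KO libraries (SD, n = 3 each). On the log2 scale the change was 0.77 (SE 0.29; adjusted p = 0.103 by limma). Without WT 2 it was 0.55 and passed narrowly (adjusted p = 0.0475 by limma, with 0.00574 and 0.299 as the extremes of the alternatives).

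The atypical factors did not separate the groups. E2f8 (ENSMUSG00000046179, chromosome 7, 48866429 to 48881596, minus strand) measured 8.46, 3.49 and 2.61 FPKM in WT 1 to WT 3, against 7.01, 5.93 and 9.30 FPKM in KO 1 to KO 3. WT 1 lay within the KO range and WT 2 and WT 3 below it, and the log2 fold change of 0.63 (SE 0.41) missed the threshold (adjusted p = 0.314 by limma). With array weights it was -0.036. E2f7 (ENSMUSG00000020185, chromosome 10, 110745439 to 110787384, plus strand) was the lowest family gene in every library, at 0.978, 0.368 and 0.286 FPKM in WT 1 to WT 3 and 0.614, 0.501 and 0.476 FPKM in KO 1 to KO 3. It had 39 to 136 reads per library and stayed under the filter of an FPKM of at least 1 in 3 libraries. With no filter its log2 fold change was 0.013 (adjusted p = 0.98 by limma), and WT 1 alone exceeded the KO libraries.

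Among the pocket protein genes, Rbl1 showed the widest gap between the groups. Rbl1 (ENSMUSG00000027641, chromosome 2, 157145893 to 157204534, minus strand), which encodes p107, measured 11.0, 2.97 and 9.64 FPKM in WT 1 to WT 3, against 14.4, 17.5 and 18.3 FPKM in KO 1 to KO 3. All KO libraries lay above all WT libraries, and WT 2 was far below the other WT libraries. The mean was 7.87 ± 4.30 in the WT and 16.7 ± 2.05 in the KO libraries (SD, n = 3 each). This is 1.15 as a log2 fold change (SE 0.45; adjusted p = 0.116 by limma). Without WT 2 the log2 fold change was smaller, 0.64, but the spread was smaller too and it passed (adjusted p = 0.0162 by limma, with 0.00730 and 0.286 as the extremes of the alternatives).

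Rb1 (ENSMUSG00000022105, chromosome 14, 73183673 to 73325822, minus strand), the retinoblastoma gene, measured 9.16, 5.87 and 6.44 FPKM in WT 1 to WT 3, against 9.52, 9.55 and 12.7 FPKM in KO 1 to KO 3. The groups did not overlap, but WT 1 came close to KO 1 and KO 2. The log2 fold change was 0.52 (SE 0.26; adjusted p = 0.207 by limma), and it passed in none of the alternatives. Of the exon bases of Rb1, 8.11% are shared with Rcbtb2 and 6.78% with Lpar6, both on the opposite strand. Rcbtb2 had a mean FPKM of 4.71 in the WT and 14.0 in the KO libraries, and since the use of strand in the counting is not given in the sources used here, its part in the Rb1 value was not tested.

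Rbl2 (ENSMUSG00000031666, chromosome 8, 91070057 to 91123844, plus strand), which encodes p130, the pocket protein of resting cells, measured 10.9, 0.799 and 16.8 FPKM in WT 1 to WT 3, against 14.1, 9.34 and 8.10 FPKM in KO 1 to KO 3. WT 2 was the lowest of all libraries, at 71 reads against 986 to 1981 in the others, and WT 3 was the highest. The log2 fold change was 0.63 (SE 0.84; adjusted p = 0.628 by limma). Without WT 2 it was -0.37 (adjusted p = 0.306 by limma, with 0.299 and 0.835 as the extremes of the alternatives), so no direction can be given. The exons of Rbl2 share 9.17% of their bases with Aktip and 11.8% with Gm45464 on the opposite strand, and those of E2f8 share 11.2% with Gm2788, genes that had a mean FPKM of at most 1.93 in either group.

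**Figure D3:**
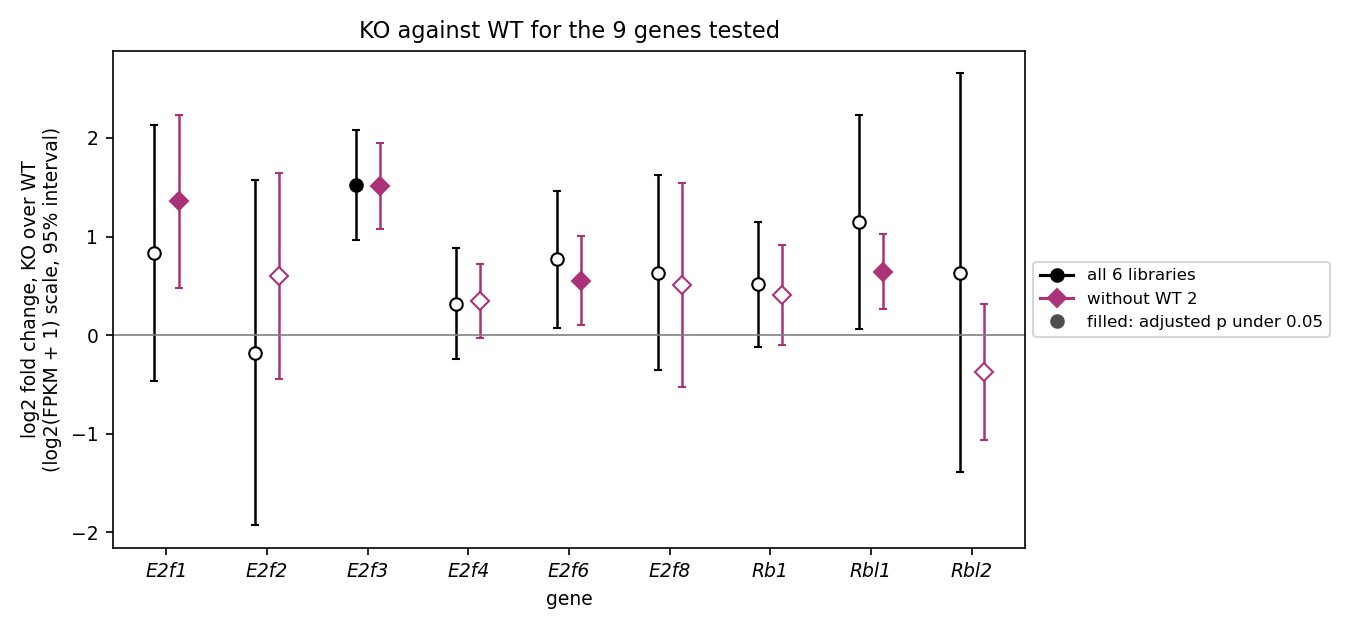
Log2 fold change of KO over WT with its 95% interval, on the log2(FPKM + 1) scale, for the 9 genes tested, with all 6 libraries (black circles) and without WT 2 (purple diamonds); filled symbols passed an adjusted p of 0.05. E2f3 is at 1.52 and 1.51 and filled in both, whereas E2f1, E2f6 and Rbl1 are filled without WT 2 alone and Rbl2 changes side.

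Leaving out WT 2 raised the number of family genes past the threshold from 1 to 4 of 9 (44.4%): E2f3, Rbl1, E2f1 and E2f6. In the same fit 52.0% of all genes passed, so the family again did not exceed the background. Rescaling to TPM moved the median over all genes from 0.086 to 0.86, and relative to that median E2f3 stood at 1.63, E2f1 at 0.90 and Rbl1 at 1.14, compared with 1.44, 0.75 and 1.06 with the FPKM as deposited.

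The balance within the family was then read within each library. E2f5, a relative of E2f4 described below, is not among the 4 repressors used. It was lower in every KO than in every WT library (log2 fold change -1.06) but missed the threshold. A scaling factor of the library cancels in ratios and shares of FPKM, but not fully in differences of log2(FPKM + 1). The mean log2(FPKM + 1) of the 3 activators minus that of the 4 repressors was -0.044, 1.32 and -0.48 in WT 1, WT 2 and WT 3 and 0.37, 0.61 and 0.70 in KO 1, KO 2 and KO 3. The KO values lay within the WT range, and WT 2, the library with the highest E2f2, was the highest of all 6. The group means were 0.27 ± 0.94 and 0.56 ± 0.17 (SD, n = 3 each), a difference of 0.29 (0.45 after rescaling to TPM). Without WT 2 the difference was 0.82 and without WT 3 it was -0.081, so its sign changed when 1 library was left out. The ratio of E2f1 to E2f4 FPKM behaved the same way, at 0.117, 0.262 and 0.0491 in the WT and 0.145, 0.191 and 0.225 in the KO libraries.

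E2f3, the gene that passed, also separated the groups when set against E2f4 or E2f6. Its own change enters these ratios, so they are not separate results. The ratio of E2f3 to E2f4 FPKM was 0.0586, 0.0463 and 0.0430 in the WT and 0.126, 0.177 and 0.140 in the KO libraries, with no overlap. The ratio of E2f3 to E2f6 was 0.674, 0.939 and 0.415 in the WT and 1.38, 1.17 and 1.2 in the KO libraries. E2f3 was thus below E2f6 in every WT library and above it in every KO library.

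The make-up of the activating RNA differed as well. E2f2 supplied 71.9%, 82.0% and 64.4% of the summed activator FPKM in WT 1, WT 2 and WT 3 and 49%, 51.2% and 51.1% in KO 1, KO 2 and KO 3. E2f1 supplied 15.3% to 19.0% in the WT and 25.3% to 30.1% in the KO libraries, and E2f3 2.70% to 16.6% and 18.8% to 23.7%. None of the 3 shares overlapped between the groups, whereas the summed activator FPKM did, at 10.9 to 78.4 in the WT and 30.5 to 46.3 in the KO libraries. The 3 shares add up to the whole and E2f3 enters them, so they are not separate results. The summed repressor FPKM was 49.3 to 57.9 in the WT and 61.0 to 78.9 in the KO libraries, of which E2f4 made up 77% to 88.2% and 77.7% to 81.7%.

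Among the pocket protein genes the share of Rbl1 was 35.5%, 30.8% and 29.3% in the WT and 37.9%, 48.1% and 46.8% in the KO libraries, without overlap. The shares of Rb1 and Rbl2 overlapped, as did the ratio of Rbl1 to Rbl2, which was 1.01, 3.71 and 0.574 in the WT and 1.02, 1.87 and 2.26 in the KO libraries. In WT 2, Rbl2 was 8.29% of the pocket protein RNA and Rb1 made up 60.9%. No test was run on these ratios and shares, and 3 libraries against 3 could not give an exact permutation p under 0.1.

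**Figure D4:**
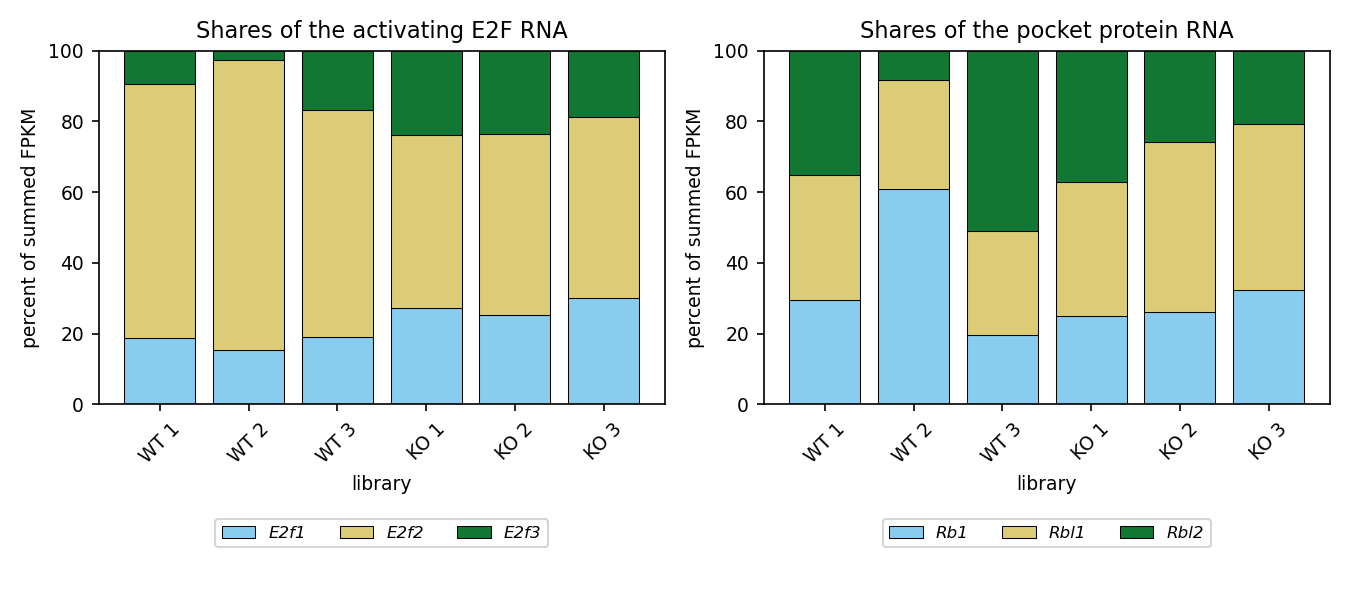
Percent of the summed FPKM of the activating E2F genes (left) and of the pocket protein genes (right) supplied by each gene in each library. The E2f2 share is 64.4% to 82.0% in the WT and 49% to 51.2% in the KO libraries; the Rbl1 share is 29.3% to 35.5% and 37.9% to 48.1%.

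The partners of the family were taken from lists of pathway genes. Their counts stand beside those over all genes tested. Of these, 13.1% rose, 13.3% fell, 49.1% did not overlap in either direction, and 52.0% passed without WT 2. Calls over all 13393 genes fell when another library was left out, from 3539 to 2620 without WT 1 and 3150 without WT 3. Without KO 1, KO 2 and KO 3 they were 2071, 1934 and 2021, so smaller list counts in these fits go with fewer calls among all genes. E2f5, the closest relative of E2f4 and a partner of p130, measured 5.82, 2.82 and 7.71 FPKM in WT 1 to WT 3, against 1.6, 2.64 and 1.64 FPKM in KO 1 to KO 3. All KO libraries lay below all WT libraries, the opposite direction to E2f4. Its log2 fold change of -1.06 missed the threshold (adjusted p = 0.0784 by limma), and without WT 2 it was -1.40 and passed (adjusted p = 0.00390 by limma). It also passed after quantile normalization (-1.15) and with array weights (-1.20). Of the DP partners that the typical E2F factors need to bind DNA, Tfdp2 rose from 2.57 ± 0.678 to 7.18 ± 0.863 (SD, n = 3 each), which is 1.21 on the log2 scale (adjusted p = 0.0147 by limma). It lost the threshold without WT 1, without each of the KO libraries, with a replicate block and after removal of a length trend. Tfdp1, the more abundant DP gene, had 27.6 ± 13.7 and 49.6 ± 10.7 (SD, n = 3 each) with overlapping groups and did not pass (log2 fold change 0.90; adjusted p = 0.141 by limma), although it passed without WT 1, as in no other alternative.

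The DREAM and MuvB list holds the MuvB core, which joins E2f4 and p130 or p107 in resting cells and B-Myb or FoxM1 in dividing ones. Of its 8 genes, 4 rose and 0 fell past the threshold, with a median log2 fold change of 0.81 compared with 0.086 over all genes. Foxm1 (1.69), Mybl2 (1.49), Lin9 (1.14) and Rbbp4 (0.98) passed, with adjusted p-values from 0.0143 to 0.0474 by limma. The first 2 belong to the form that activates genes of mitosis. Mybl1 was at 0.65, Lin52 at 0.43, Lin54 at 0.35 and Lin37 at 0.0088, and these did not pass. The number of risers was 4 without WT 2, 1 without WT 1 or WT 3 and 0 without any 1 of the KO libraries.

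Of 8 corepressors that RB recruits, Hdac1 and Suv39h1 rose, by 0.98 and 1.00 on the log2 scale (adjusted p = 0.0197 and 0.0200 by limma), and 0 fell. The 2 of 8 is close to the 26.4% of all genes that passed. The list median was 0.56. Hdac2, at 0.68, did not pass, although its groups did not overlap. The count was 5 higher and 1 lower without WT 2, and 0 without any 1 of the other libraries.

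The Polycomb complex of E2f6 did not move as 1 group, with 1 of 10 genes past the threshold and a median of 0.22. Yaf2, a subunit that links to the RING proteins, measured 17.5, 10.2 and 13.5 FPKM in WT 1 to WT 3, against 2.52, 2.48 and 2.89 FPKM in KO 1 to KO 3. Its log2 fold change of -1.99 passed (adjusted p = 0.00301 by limma) and also passed in 17 of 18 alternatives, all but rescaling to TPM. Cbx3, a heterochromatin protein of the same complex, was at 2.18 and missed the threshold (adjusted p = 0.0506 by limma), and Ring1 was at -0.58. Without WT 2, 1 gene of the list was higher and 2 were lower past the threshold. Of 5 germ line genes that E2f6 is known to silence, Tuba3a could be tested, at -0.29 (adjusted p = 0.564 by limma), and Mael and Slc25a31 had no reads in any library.

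Of 40 S phase genes that activating E2F factors switch on, all tested, 16 rose and 0 fell past the threshold, compared with 13.1% and 13.3% of all genes. The median log2 fold change was 1.24 (0.086 over all genes), and 26 had all KO libraries above all WT libraries, against 49.1% of all genes without overlap in either direction. Uhrf1, which guides maintenance DNA methylation, went from 11.9 ± 5.07 to 108 ± 26.8 FPKM (SD, n = 3 each; log2 fold change 3.14; adjusted p = 0.00243 by limma). Orc1, a subunit of the origin recognition complex, and Pole, the catalytic subunit of DNA polymerase epsilon, both rose by 1.63 (adjusted p = 0.00294 and 0.00411 by limma). These 3 passed in each alternative in which they were tested. Ccne1, a cyclin gene long used as an E2F target, was the single gene of the list with a negative value, -0.47 (adjusted p = 0.453 by limma). The count was 35 without WT 2 (52.0% of all genes passed there in either direction), 9 without WT 1 and 7 without WT 3. Without KO 1, KO 2 and KO 3 it was 4, 4 and 5. After rescaling to TPM it was 30, where 2279 of all 13393 genes tested rose. One of the E2F words above was present in 15 of the 30 genes of the list with a promoter window (50%), compared with 2.61% of all genes. The list was chosen as known E2F targets, so such an excess could be foreseen and says nothing about these libraries. All genes were not matched to the list for base composition.

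The S phase list and the activators can be set side by side by library. The mean log2(FPKM + 1) of the 40 genes was 3.0, 3.43 and 2.5 in WT 1, WT 2 and WT 3 and 3.91, 4.19 and 4.47 in KO 1, KO 2 and KO 3. With the FPKM as deposited, WT 2 was the highest and WT 3 the lowest WT library here, as for E2f1 and E2f2. E2f3 was highest in WT 1. FPKM over all genes summed to 329893, 897352 and 305933 in WT 1, WT 2 and WT 3. Median-of-ratios scaling factors of the same libraries were 1.01, 0.988 and 1.01, so that scaling leaves them nearly as deposited. The order of the WT libraries can therefore depend on the scaling chosen, and the order after rescaling to TPM was not tested. All KO libraries lay above all WT libraries, including WT 2, whose E2f1 exceeded 2 of the KO libraries. The proliferation list followed the same order among the WT libraries, at 3.66, 4.39 and 2.39, and was 4.75, 5.05 and 5.09 in the KO libraries. Of its 10 genes 4 rose and 0 fell past the threshold (median 1.51), with Bub1, Top2a and Ccnb1 at 1.80, 2.02 and 1.85 (adjusted p = 0.0211, 0.0251 and 0.0282 by limma). Without WT 2 all 10 passed, without WT 1 or WT 3 it was 2 and 3, and without any 1 of the KO libraries none did.

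Of the apoptosis genes that E2f1 is known to induce, 6 could be tested. Past the threshold 1 fell and 0 rose, and the median was -0.39, compared with 0.086 over all genes. After rescaling to TPM it was 0.34, compared with 0.86 over all genes, so it lay below the median of all genes under either scaling. Pmaip1, which encodes the BH3-only protein Noxa, measured 22.9, 18.5 and 30.1 FPKM in WT 1 to WT 3, against 0.0609, 0.168 and 0.117 FPKM in KO 1 to KO 3. These KO values rest on 3, 7 and 5 reads, against 577 to 1233 in the WT libraries. The log2 fold change of -4.45 (adjusted p = 0.000271 by limma) passed in all 18 alternatives. Bbc3, which encodes Puma, was at -0.90 and did not pass (adjusted p = 0.0901 by limma). Without WT 2 there were 2 genes lower and 1 higher.

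The cyclins and kinases that act on the pocket proteins held genes of either direction. Ccnd2, a D-type cyclin that starts RB phosphorylation, measured 44.0, 15.9 and 46.9 FPKM in WT 1 to WT 3, against 1.52, 2.26 and 2.13 FPKM in KO 1 to KO 3, a log2 fold change of -3.49 (adjusted p = 0.00243 by limma) that passed in all 18 alternatives. Cdk2, the kinase partner of cyclin E and cyclin A, rose from 6.10 ± 2.78 to 19.8 ± 1.77 FPKM (SD, n = 3 each; 1.62; adjusted p = 0.0128 by limma), and Cdc25a, a phosphatase that activates it, rose by 1.04 (adjusted p = 0.0349 by limma). Both lost the threshold without any 1 of the KO libraries, and Cdc25a also without WT 3, with a replicate block and with no filter on low values. In all, 2 genes of this list of G1 cyclins and kinases rose and 1 fell of 8 tested, with a median of 0.55.

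Of 6 CDK inhibitor genes tested, 2 rose and 0 fell, with a median of 0.054. Cdkn2a, whose products are the CDK4 and CDK6 inhibitor p16 and the p53 activator p19Arf, measured 0.829, 8.06 and 1.87 FPKM in WT 1 to WT 3, against 12.7, 24.8 and 44.7 FPKM in KO 1 to KO 3, a log2 fold change of 2.80 (adjusted p = 0.0276 by limma). The value per gene does not part the 2 products. Cdkn2c, which encodes p18, rose from 8.24 ± 4.38 to 26.5 ± 0.470 FPKM (SD, n = 3 each; 1.70; adjusted p = 0.0239 by limma). Without WT 1, KO 2 or KO 3 neither passed, and without KO 1 or WT 3 a single gene of the list did. Cdkn1a was at -0.66 (adjusted p = 0.477 by limma).

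Of 6 genes that control the turnover and dephosphorylation of the family, 1 rose and 0 fell, with a median of 0.58. Skp2, the ubiquitin ligase subunit that degrades p27 and is itself an E2F target, rose from 1.23 ± 0.372 to 4.81 ± 1.21 FPKM (SD, n = 3 each; 1.37; adjusted p = 0.0109 by limma) and lost the threshold without KO 2. Ppp1cc, a phosphatase catalytic subunit that acts on RB, was at 0.83 and Ccnf at 1.12, and neither passed (adjusted p = 0.148 and 0.178 by limma). Without WT 2, 4 genes of the list passed. The neutrophil, monocyte, erythroid, B, T and NK cell marker values given above differ between the same groups, and their part in the values of the family and of these lists was not tested.

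**Figure D5:**
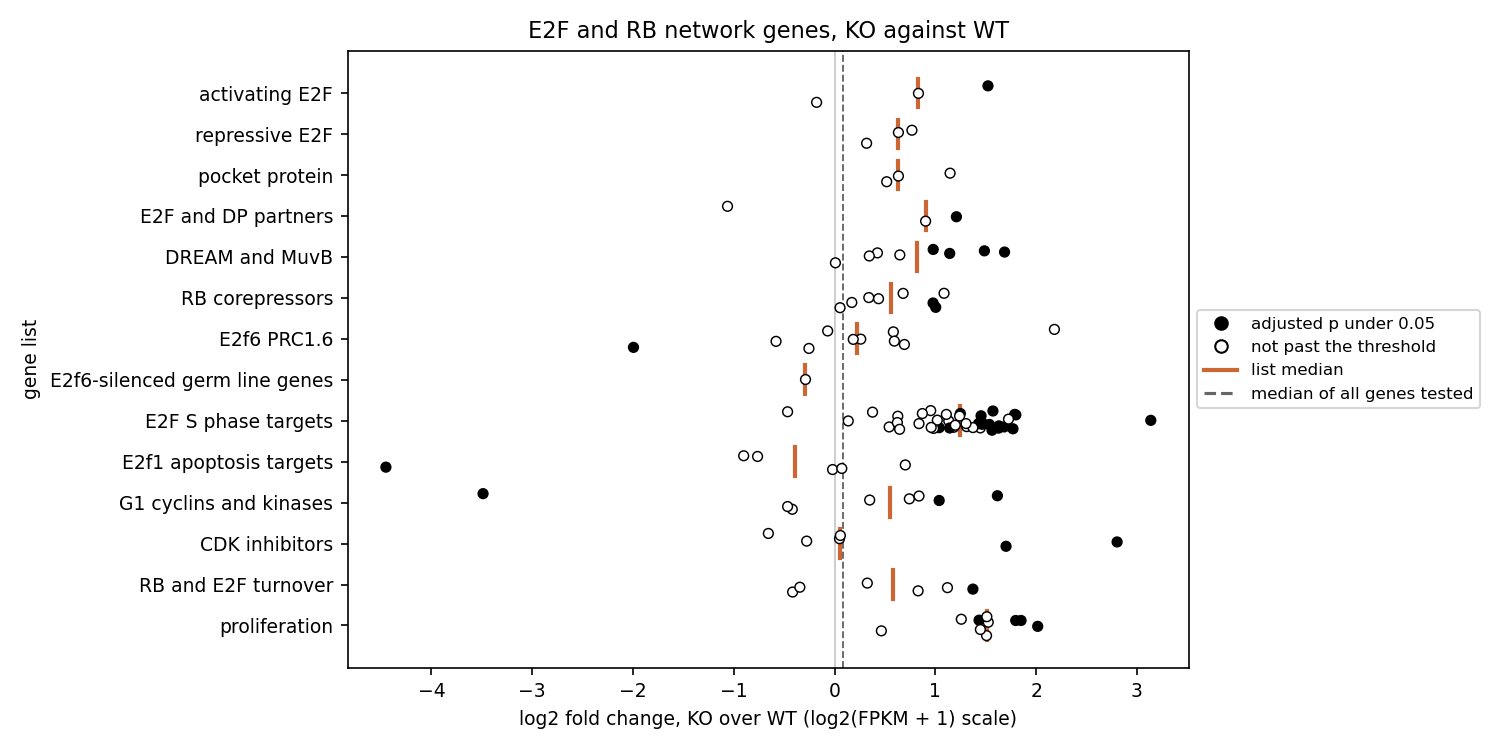
Log2 fold change of KO over WT, on the log2(FPKM + 1) scale, of each tested gene (points; filled where the adjusted p was under 0.05) in the activating, repressive and pocket protein groups and in the lists of their partners, targets and regulators; orange bars are list medians and the dashed line is the median of all genes tested, 0.086. The S phase list has its median at 1.24 with 1 of 40 genes below 0, while Pmaip1 (-4.45) and Ccnd2 (-3.49) lie far to the left of their lists.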

How the data were processed

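RNA of BM cells was measured in 6 libraries, 3 WT and 3 KO. The authors extracted total RNA with Trizol, built NEBNext libraries, sequenced paired-end reads, and deposited FPKM per gene with gene length and coordinates; the submitters' processing notes name HISAT2 2.0.5, featureCounts 1.5.0-p3 and GRCm38. The authors tested differential expression with DESeq2. The deposited unit is FPKM, so limma was used on the log scale here. FPKM times length gave whole reads (tolerance 0.05 reads) for 100% of values. Their totals were 0.827 to 1.55 times the library size behind the FPKM (highest in WT 2), so the deposited FPKM already include a factor for each library, by a method not given in the sources used here. Of the table's genes, 53499 have the same coordinates in GENCODE M21.

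The 13393 genes that reached 1 FPKM in 3 or more libraries were transformed as log2(FPKM + 1) and fitted with limma 3.58.1 (lmFit, eBayes with trend, two-sided, R 4.3.3), with Benjamini-Hochberg adjustment and a threshold of 0.05. The labels do not say that replicates are separate animals, so p-values measure the spread between these libraries. Named are the 10 family genes, Phf6, all E2F and DP and DREAM genes, and up to 3 genes of each other list with the smallest p-values, of which 1 is not reported here; Ccne1, Cd4, Cd5, Cd8b1, Gzma, Ppbp, Gp1bb, Mael, Slc25a31 and the genes that overlap family exons were chosen after their values were seen. The members and lists were chosen with earlier results of these data known. Alternatives were pseudocounts of 0.1 and 0.5, no filter, a minimum mean of 5 FPKM, median-of-ratios scaling, TPM, quantile normalization, removal of a length trend, eBayes without trend, array weights, a replicate block, voom on the recovered reads and leaving out each library. The model was tested on simulated data. Python 3.11.15 with pandas 2.3.3 and NumPy 2.4.6, and the R package data.table (version 1.17.8), were also used.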

Additional observations from a re-analysis of the deposited data

How the results depend on the processing

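The number of genes past the threshold, 3539, was 1837 with a minimum mean of 5 FPKM, 8461 with array weights and 1934 to 6967 when 1 library was left out, highest without WT 2. The number of family genes that rose, 1, was 2 after rescaling to TPM, 4 with array weights and 1 to 4 when 1 library was left out. With voom on the recovered reads 3362 genes passed, E2f3 among them. None of the 10 family genes was lower past the threshold in any alternative. E2f5, outside the 10, was lower past it without WT 2 (-1.40), after quantile normalization (-1.15) and with array weights (-1.20). The difference of activators minus repressors, 0.29, was -0.081 to 0.82 when 1 library was left out. E2f2 turned positive after rescaling to TPM (0.67), after quantile normalization (0.13), with array weights (0.085) and without WT 2 (0.60). Relative to the median over all genes in the same fit, these E2f2 values were -0.19, -0.012, 0.040 and 0.56. E2f8 turned negative with array weights (-0.036), and Rbl2 with array weights (-0.18) and without WT 2 (-0.37). With 1 library left out, E2f2 ranged from -0.92 to 0.60 and Rbl2 from -0.37 to 1.28. The cause was not tested. Same-numbered libraries correlated at 0.095, 0.105 and -0.153 in their deviations from the group means. These values show no clear pairing by number, but deviations within groups of 3 libraries cannot exclude one. With a replicate block 2676 genes passed, and E2f3 was the 1 family gene among them. After rescaling to TPM 67.8% of the calls were higher, compared with 49.6%. Of 162 family values under the alternatives, 148 kept direction and side of the threshold, 7 came past it and 7 turned. E2f7, at 39 to 136 reads, is the gene that depth limits most.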
